A study of Ceratopteris richardii with 15 samples.

Results

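Leaf tip genes of the fern Ceratopteris richardii were taken as the genes with a mean of at least 5 TPM in leaf tip, at least 2 times the mean of each of the other 4 tissues, and with the lowest leaf tip library above every library of those tissues. TPM gives transcripts of a gene per 1000000 transcripts in a library, with gene length taken into account. By this rule 207 of 88641 genes in the deposited table were members. The rule allows up to 300 genes, so no gene was dropped. All sporophytes were wild type RNWT1, raised from spores in a growth chamber, and sampled at 50 days. There were 3 libraries each from leaf tip, shoot tip, leaf without its tip, root tip and root without its tip, with no treatment. Leaf and root, where named alone, are these samples with the tip removed. How many plants went into a library, and whether replicates came from separate plants, is not stated, so all spreads and p-values refer to these libraries and may be technical.

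A fern leaf grows at its tip, where an apical cell and later the cells of the margin keep dividing while the young leaf is still coiled, so that tissue matures from the base towards the tip. The shoot tip carries the shoot apical cell and is the place where new leaves arise. The root tip holds a comparable apical cell under a root cap. Behind the tips, leaf and root hold more mature tissue.

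The gene identifiers are names of the form given by the Trinity assembler, with a tissue code in front. None matched the reference table of 36816 genes for this species (0 of 207 members), so the members are given by identifier, without a gene name, a function or a position, and the tissue labels were not checked against named markers. Where close copies of a gene share reads, the split between them is uncertain. In bulk tissue, fewer cells of a type and less RNA per cell cannot be told apart. Among the root libraries, replicate 3 differed most: of 72 members with a root mean of at least 1 TPM, it was under 0.5 times the mean of replicates 1 and 2 in 14 and over 2 times in 2. Replicates 1 and 2 were over 2-fold apart in 5 of them.

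The rule picks genes that are higher in leaf tip, and few of them were found in leaf tip alone. A mean under 1 TPM in all 4 other tissues was seen for 5 members, and none was listed at 0 in all 12 other libraries. A mean of at least 1 TPM was reached in 1 other tissue by 50 members, in 2 by 49, in 3 by 48 and in all 4 by 55. The word "specific" therefore describes 5 of these genes, and "highest in leaf tip" describes the set. The leaf tip libraries were close to each other, with an SD of 3.67% of the mean for the median member. The rule used these values, and they are given as a description.

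As a group the members took up a small part of the leaf tip transcriptome. Their TPM summed to 8364.01, 8399.81 and 8356.44 in the leaf tip libraries, which is 0.837% ± 0.0023 of the total (SD, n = 3). The sum was 2838.23, 2834.62 and 2847.18 in shoot tip, 1612.88, 1629.06 and 1609.05 in leaf, 1269.28, 1266.42 and 1281.48 in root tip, and 508.99, 494.6 and 401.29 in root. The tissues did not overlap in this sum, the order was leaf tip, shoot tip, leaf, root tip and root, and the lowest library was root replicate 3. These sums are of TPM as deposited. The factors of median-ratio scaling, used below as an alternative, were 1.24 in leaf tip and 1.23 to 1.24 in shoot tip. They were 0.731 to 0.764 in leaf, 1.03 to 1.04 in root tip and 0.854 to 0.988 in root. Division by them raises leaf and lowers leaf tip and shoot tip. The distance of leaf from both, here and in the ratios below, thus depends on the scaling. The median member was at 18.9 TPM in leaf tip, 5.30 in shoot tip, 1.95 in leaf, 1.40 in root tip and 0.417 in root. The number of members at 1 TPM or more was 207 in each leaf tip library, 192 to 194 in shoot tip, 129 in each leaf library, 116 in each root tip library and 65 to 74 in root. A mean of at least 5 TPM was held by 109 members in shoot tip, 64 in leaf, 43 in root tip and 26 in root. No member was listed at 0 in all libraries of shoot tip, while 8 were in leaf, 10 in root tip and 11 in root. With 0.1 TPM added to both means, leaf tip was at least 10 times shoot tip in 20 members, leaf in 91, root tip in 104 and root in 151. In TPM as deposited, shoot tip was thus the tissue that came closest to leaf tip for the set, and root the one furthest from it.

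**Figure D1:**
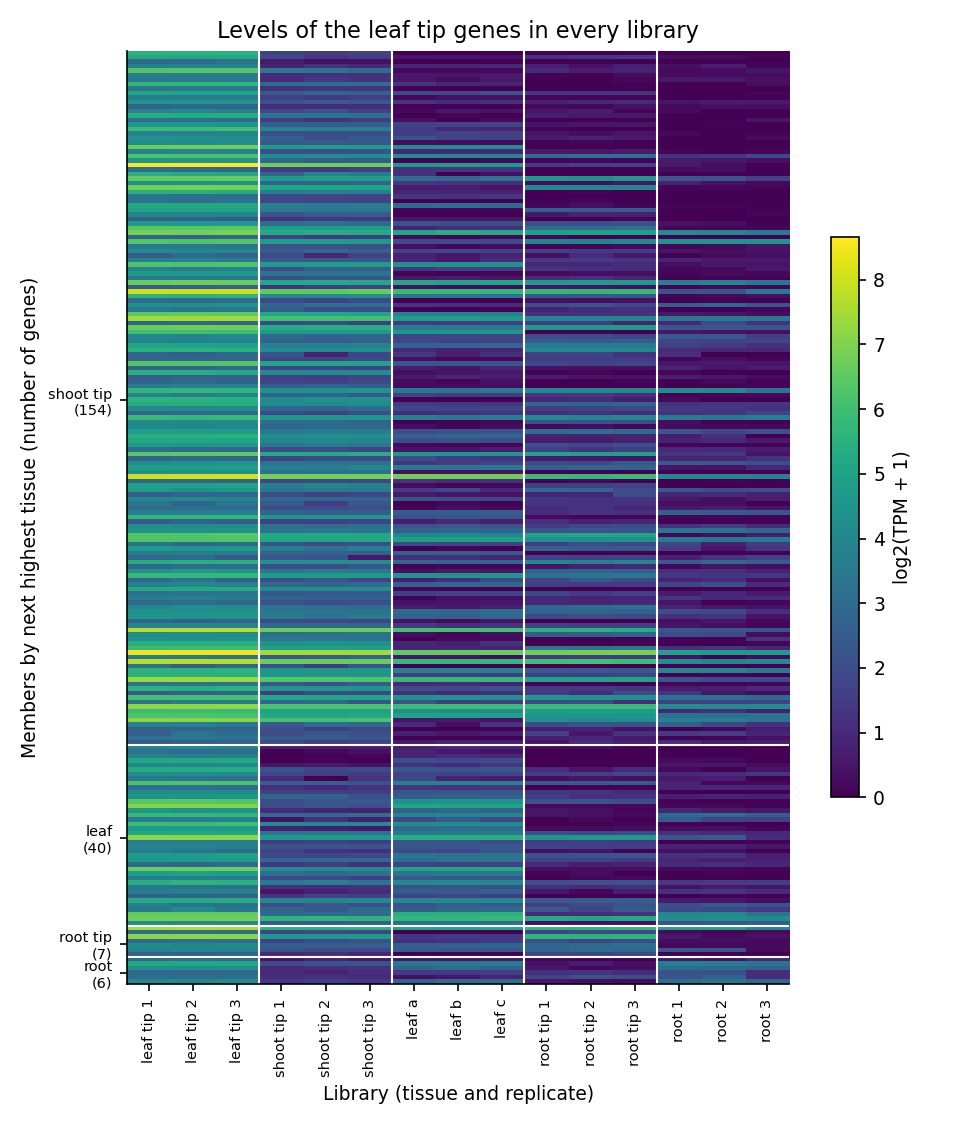
Level of each of the 207 members (rows) in each of the 15 libraries (columns), as log2(TPM + 1). Rows are grouped by the tissue with the highest mean other than leaf tip, with the number of genes, and ordered by their ratio within each group; the 3 leaf tip columns are the brightest in every row, followed by shoot tip in 154 rows and by leaf in 40.

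The excess of leaf tip was modest for most members. The ratio of the leaf tip mean to the highest other mean, with 0.1 TPM added to both, had a median of 2.49 and quartiles of 2.19 and 3.41. It was under 2.5 for 104 members, at least 3 for 69, at least 5 for 24 and at least 10 for 10. The highest ratio was 20.4. The rule's threshold passed through a dense part of the distribution. SHA_TRINITY_DN10555_c0_g1, just inside it, had a leaf tip mean of 9.08 TPM and a shoot tip mean of 4.54 TPM, and LA_TRINITY_DN50971_c0_g1 had 138.6 TPM in leaf tip and 69.3 TPM in shoot tip. RO_TRINITY_DN5625_c0_g12, just outside, had a leaf tip mean of 21.4 TPM and a shoot tip mean of 10.7 TPM, and LA_TRINITY_DN13217_c0_g1 had 8.54 TPM in leaf tip and 4.28 TPM in shoot tip. At the level threshold, SHA_TRINITY_DN8758_c0_g1 and LA_TRINITY_DN7701_c0_g1 were inside with leaf tip means of 5.02 and 5.03 TPM, while LA_TRINITY_DN866_c0_g1 and LA_TRINITY_DN16264_c0_g1 were outside at 4.99 and 4.94 TPM.

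Members occurred over a wide range of levels, below the 279 most abundant genes of the leaf tip. The leaf tip mean was 5 to under 10 TPM for 58 members, 10 to under 20 for 51, 20 to under 50 for 50, 50 to under 100 for 28, and 100 TPM or more for 20. These were 1.20%, 0.969%, 0.889%, 1.22% and 1.17% of all genes in the same ranges. Of 19728 genes at 5 TPM or more in leaf tip, 7103 (36.0%) had their highest mean there, 209 exceeded each other tissue 2-fold, and 2 of these had libraries that overlapped. The same criteria selected 306 genes for shoot tip, 898 for root tip, 1331 for leaf and 2600 for root, counted with no limit of 300.

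**Figure D2:**
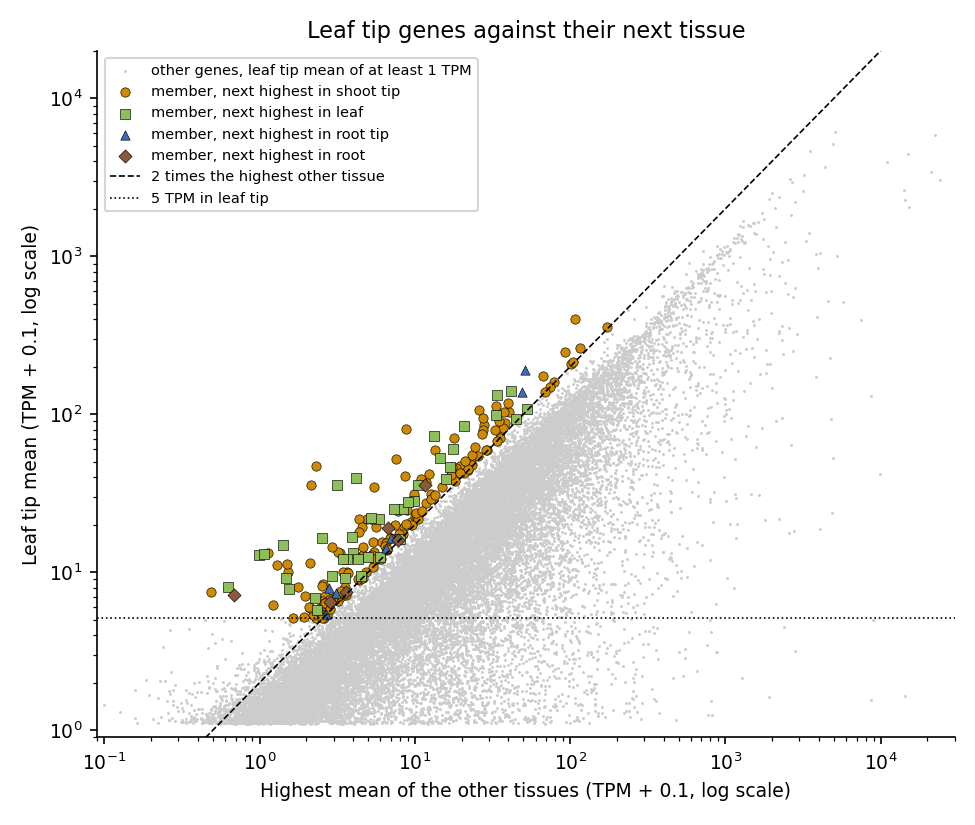
Leaf tip mean against the highest mean of the other tissues for all genes with a leaf tip mean of at least 1 TPM, both in TPM + 0.1 on log axes. The 207 members are coloured by the tissue with the next highest mean, and most lie close to the dashed line that marks 2 times the highest other tissue.

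The most abundant members were present in several tissues. LA_TRINITY_DN10228_c0_g1 had 401.03, 398.89 and 399.34 TPM in leaf tip, against 110.23, 105.3 and 108.58 in shoot tip, 24.83, 27.09 and 25.48 in leaf, 1.71, 2.25 and 2.37 in root tip, and 0.5, 0.27 and 0.07 in root. All 5 tissues were separate, and the level was 3.70 times that of shoot tip and 15.5 times that of leaf. Its root tip and root levels were a small part of those in the shoot. RT_TRINITY_DN10953_c0_g2 had 349.59, 352.17 and 363.3 TPM in leaf tip, against 172.93, 173.71 and 172.18 in shoot tip, 91.58, 93.51 and 96.53 in leaf, 109.39, 117.83 and 116.81 in root tip, and 30.39, 26.69 and 26.69 in root. Leaf tip was 2.05 times shoot tip, and every tissue held a substantial level. LA_TRINITY_DN10086_c0_g1 had 261.11, 266.15 and 262.8 TPM in leaf tip, against 114.74, 114.99 and 114.87 in shoot tip, 107.59, 108.24 and 107.91 in leaf, 55.29, 52.18 and 57.37 in root tip, and 15.83, 14.96 and 13.42 in root. Shoot tip and leaf were nearly level for this gene, and root was the lowest tissue.

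The next members in order of leaf tip level showed the same broad presence. LA_TRINITY_DN776_c0_g1 averaged 249 ± 2.18 TPM in leaf tip, 92.5 ± 2.59 in shoot tip, 54.5 ± 1.99 in leaf, 53.3 ± 1.3 in root tip and 6.21 ± 4.24 in root. Its root replicate 3 held 11.1 TPM, against 3.7 and 3.83 in replicates 1 and 2. LE_TRINITY_DN9282_c0_g1 averaged 214 ± 1.20 TPM in leaf tip, 103.5 ± 0.767 in shoot tip, 67.4 ± 2.33 in leaf, 44.3 ± 3.83 in root tip and 4.04 ± 0.0551 in root. LA_TRINITY_DN15428_c0_g2 averaged 207 ± 3.71 TPM in leaf tip, 100.9 ± 0.641 in shoot tip, 53.5 ± 0.663 in leaf, 63.5 ± 2.17 in root tip and 16.7 ± 1.17 in root. In both of these genes leaf tip was close to the 2-fold minimum over shoot tip, at ratios of 2.07 and 2.05. RO_TRINITY_DN1186_c0_g1 averaged 173 ± 3.97 TPM in leaf tip, 67.2 ± 1.25 in shoot tip, 26.5 ± 1.17 in leaf, 14.7 ± 0.189 in root tip and 10.4 ± 0.178 in root, where each value is a mean ± SD of 3 libraries. The tissues of this gene were separate from each other.

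**Figure D3:**
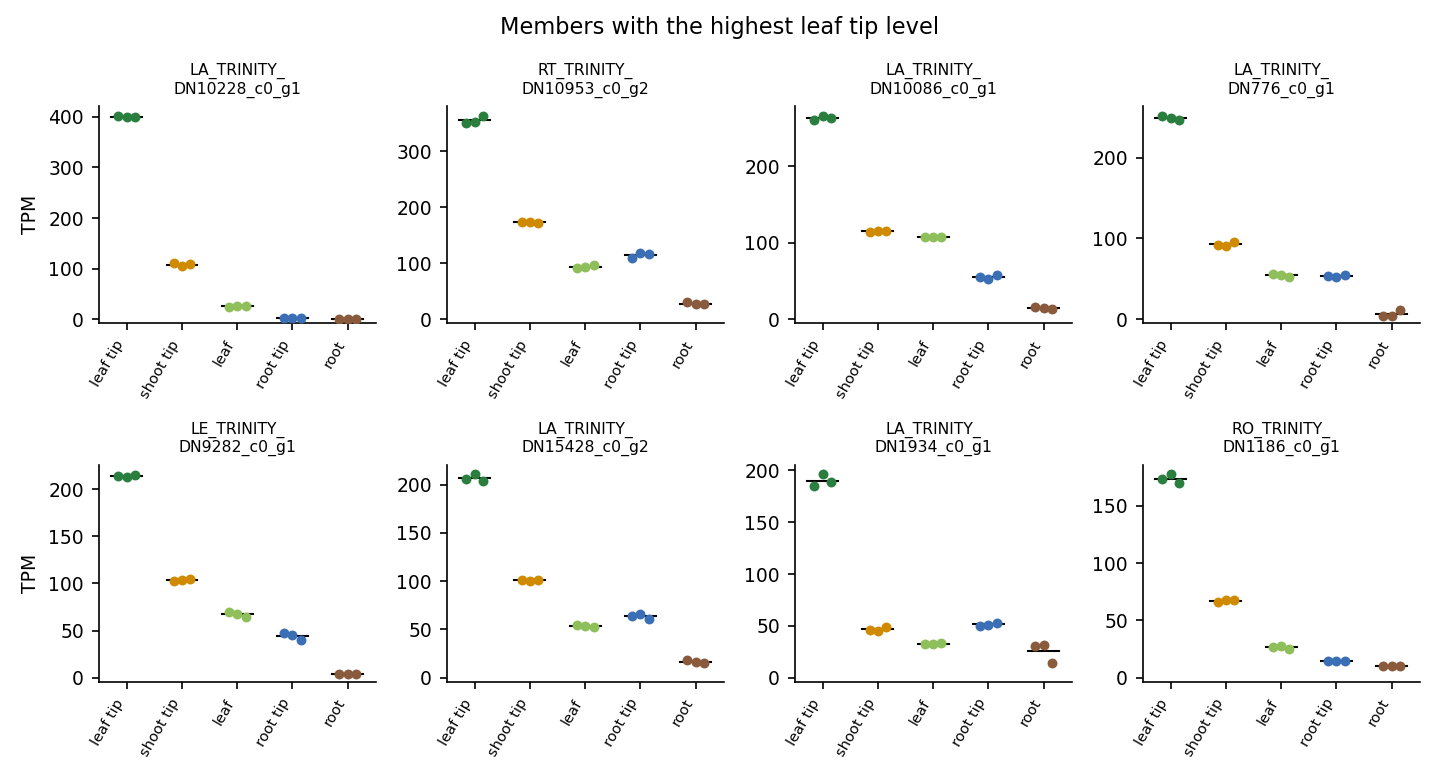
TPM in every library for the 8 members with the highest leaf tip mean, by tissue. Points are libraries and short lines are tissue means; leaf tip is 2.05 to 3.70 times the next tissue in these genes, and all but LA_TRINITY_DN10228_c0_g1 have a mean of at least 10 TPM in both leaf and root tip.

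The members with the largest ratio were less abundant and closer to leaf tip alone. LA_TRINITY_DN4681_c0_g1 had 47.76, 46.83 and 45.71 TPM in leaf tip, against 2.28, 1.99 and 2.32 in shoot tip and at most 0.02 in any leaf, root tip or root library. It was the gene with the highest ratio, and shoot tip was the other tissue with a clear level. LA_TRINITY_DN9929_c0_g18 had 36.52, 35.21 and 34.93 TPM in leaf tip, against 2.78, 1.44 and 1.94 in shoot tip, 0.42, 0.43 and 0.33 in leaf, 1.28, 1.63 and 1.73 in root tip, and 0.23, 0.2 and 0.06 in root. The shoot tip and root tip libraries of this gene overlapped. SHA_TRINITY_DN9462_c0_g1 had 12.2, 14.09 and 13.24 TPM in leaf tip, against 0.77, 1.37 and 0.98 in shoot tip, 0.86, 0.87 and 1.0 in leaf, 0.7, 0.35 and 0.68 in root tip, and 0.27, 0.66 and 0.11 in root. Its shoot tip and leaf libraries overlapped, as did those of root tip and root.

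The 5 members with a mean under 1 TPM in every other tissue were all low genes; they were singled out after their values were seen, although 4 of them are also among the 8 largest ratios. LA_TRINITY_DN5236_c0_g1 had 13.64, 12.49 and 12.98 TPM in leaf tip, against 0, 0.04 and 0.11 in shoot tip, 0.79, 1.13 and 0.97 in leaf, and at most 0.03 in root tip and root. LA_TRINITY_DN4920_c0_g1 had 12.44, 13.52 and 12.42 TPM in leaf tip, against 0.58, 0.56 and 0.6 in shoot tip, 0.72, 1.07 and 0.87 in leaf, 0.18, 0.26 and 0.12 in root tip, and 0, 0.04 and 0 in root. For both genes leaf was the next tissue, and its libraries lay above those of shoot tip. LA_TRINITY_DN1747_c0_g1 had 8.52, 7.1 and 8.1 TPM in leaf tip, against 0.06, 0.15 and 0.32 in shoot tip and 0.76, 0.49 and 0.33 in leaf, and was listed at 0 in all root tip and root libraries. LA_TRINITY_DN7179_c3_g1 had 6.89, 6.75 and 8.52 TPM in leaf tip, against 0.55, 0.29 and 0.32 in shoot tip, and was listed at 0 in all leaf and root libraries, with 0, 0.07 and 0 in root tip. For this gene shoot tip was the next tissue. LA_TRINITY_DN15471_c0_g1 had 6.89, 7.53 and 6.92 TPM in leaf tip, against 0.34, 0.8 and 0.45 in shoot tip, 0.44, 0.4 and 0.46 in leaf, 0.09, 0.06 and 0.02 in root tip, and 0.48, 0.32 and 0.96 in root. Shoot tip, leaf and root overlapped in this gene.

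**Figure D4:**
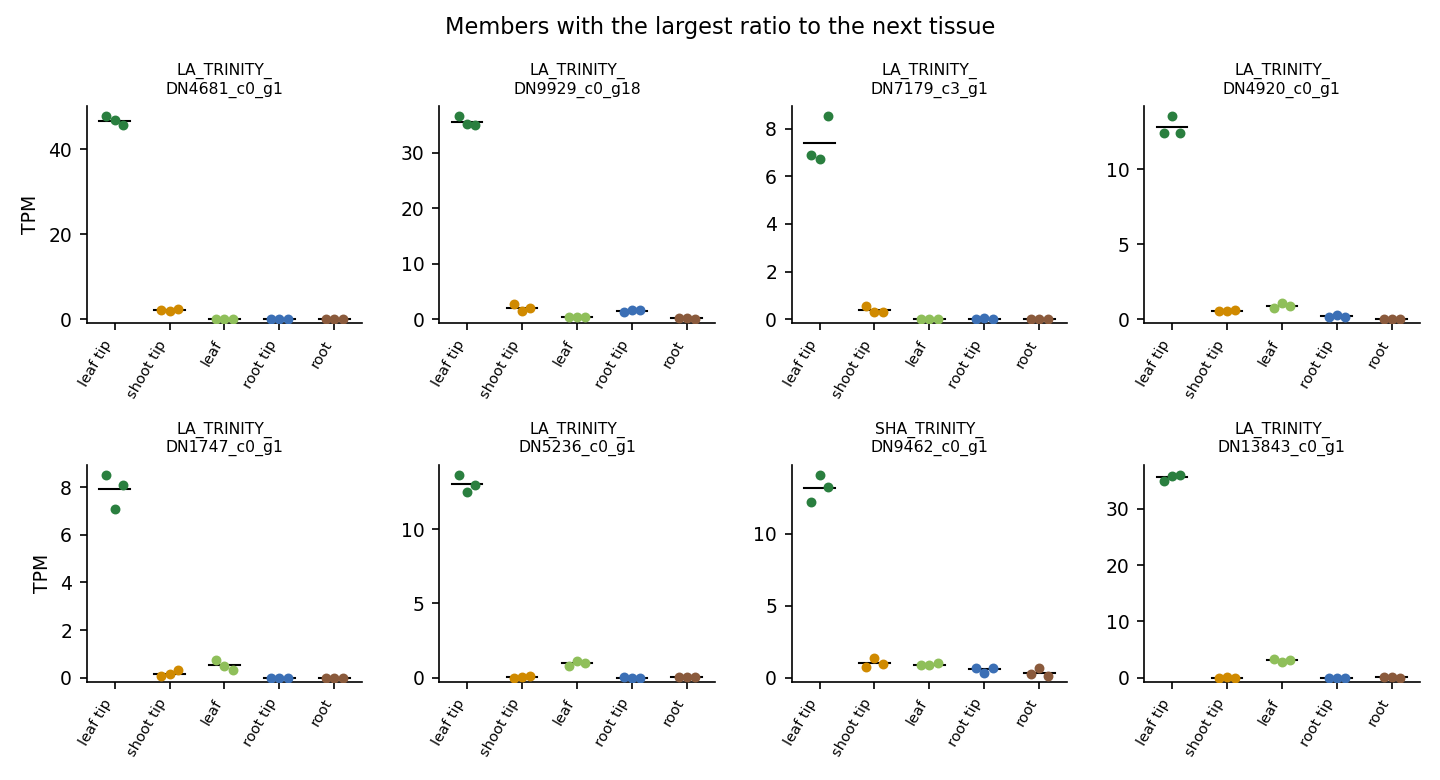
TPM in every library for the 8 members with the largest ratio of leaf tip to the next tissue, by tissue. Points are libraries and short lines are tissue means; the leaf tip means run from 7.39 to 46.8 TPM, and the highest other mean among these genes is 3.07 TPM, in the leaf libraries of LA_TRINITY_DN13843_c0_g1.

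The next tissue after leaf tip was shoot tip for 154 members (74.4%), leaf for 40 (19.3%), root tip for 7 and root for 6. The next tissue's libraries were above all libraries of the remaining tissues in 132 of the 154, 28 of the 40, 4 of the 7 and 0 of the 6. The most frequent full order below leaf tip was shoot tip, leaf, root tip, root, seen in 55 members (26.6%). It was followed by shoot tip, root tip, leaf, root in 38 members. The members with leaf as the next tissue had a median ratio of 3.39 (range 2.04 to 13.1), and those with shoot tip a median of 2.40 (1.97 to 20.4). Medians within the leaf group were 19.1 TPM in leaf tip, 2.89 in shoot tip, 5.01 in leaf, 0.632 in root tip and 0.422 in root. Medians within the shoot tip group were 19.6 TPM in leaf tip, 6.70 in shoot tip, 1.25 in leaf, 1.52 in root tip and 0.398 in root.

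A smaller number of members were far above shoot tip, the tissue closest to leaf tip for most of the set. The leaf tip mean was at least 10 times the shoot tip mean, with 0.1 TPM added, in 20 members. Leaf was the next tissue for 14 of these, shoot tip for 4 and root for 2. Choosing members far above shoot tip itself disfavours shoot tip as the next tissue, so this split follows in part from the choice. LA_TRINITY_DN1274_c0_g1 had 132.53, 132.09 and 129.87 TPM in leaf tip, against 3.2, 3.78 and 3.18 in shoot tip, 34.51, 34.1 and 32.35 in leaf, 0.16, 0.17 and 0.14 in root tip, and 0.13, 0.15 and 0.05 in root. It was thus a gene of the leaf organ with little RNA in the shoot tip and nearly none in roots. LA_TRINITY_DN13843_c0_g1 had 34.9, 35.91 and 36.06 TPM in leaf tip, against 0.03, 0.08 and 0 in shoot tip, 3.3, 2.77 and 3.15 in leaf, 0, 0.03 and 0.03 in root tip, and 0.18, 0.17 and 0 in root. Other members with leaf as the next tissue were broader. LA_TRINITY_DN10176_c1_g1 averaged 140.4 ± 0.858 TPM in leaf tip, 25.6 ± 0.336 in shoot tip, 41.6 ± 0.391 in leaf, 23.7 ± 0.743 in root tip and 3.19 ± 1.84 in root. SHA_TRINITY_DN14010_c0_g1 averaged 108.4 ± 1.57 TPM in leaf tip, 49.5 ± 1.74 in shoot tip, 52.4 ± 0.546 in leaf, 37.3 ± 2.18 in root tip and 17.8 ± 1.00 in root, each ± SD of 3 libraries. Its shoot tip libraries, at 49.26, 51.28 and 47.82 TPM, lay just below leaf at 52.4, 51.9 and 52.99.

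Root tip was the next tissue for 7 members. LA_TRINITY_DN1934_c0_g1 had 184.56, 196.25 and 189.16 TPM in leaf tip, against 46.46, 45.29 and 48.92 in shoot tip, 32.44, 32.56 and 33.11 in leaf, 50.22, 50.84 and 53.08 in root tip, and 30.25, 31.96 and 13.81 in root. Its root replicate 3 was the low library. RT_TRINITY_DN891_c0_g1 had 139.83, 139.6 and 135.98 TPM in leaf tip, against 24.21, 23.62 and 24.78 in shoot tip, 1.64, 1.84 and 1.64 in leaf, 49.17, 48.61 and 49.48 in root tip, and 0.5, 0.23 and 0.34 in root. This gene was found in the growing tips, with little in the organs behind them. RT_TRINITY_DN15070_c0_g1 averaged 16.3 ± 0.947 TPM in leaf tip, 4.95 ± 0.169 in shoot tip, 5.42 ± 0.524 in leaf, 6.88 ± 1.03 in root tip and 0.157 ± 0.0379 in root. Leaf overlapped with both shoot tip and root tip in this gene. With root as the next tissue, SHA_TRINITY_DN10006_c0_g1 had 36.23, 35.35 and 34.59 TPM in leaf tip, against 2.96, 3.75 and 3.79 in shoot tip, 11.14, 11.09 and 12.12 in leaf, 0.34, 0.6 and 0.32 in root tip, and 12.77, 12.26 and 9.35 in root. Leaf and root overlapped, and both were above shoot tip and root tip. LA_TRINITY_DN1119_c0_g1 averaged 18.9 ± 0.306 TPM in leaf tip, 1.17 ± 0.215 in shoot tip, 6.33 ± 1.10 in leaf, 0.280 ± 0.157 in root tip and 6.66 ± 0.842 in root. SHA_TRINITY_DN2830_c0_g1 averaged 16.0 ± 0.476 TPM in leaf tip, 1.78 ± 0.289 in shoot tip, 7.15 ± 1.12 in leaf, 0.323 ± 0.163 in root tip and 7.71 ± 1.51 in root, again ± SD of 3 libraries. The 3 genes shared a pattern of leaf tip first, then leaf and root at like levels, and low shoot tip and root tip.

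The rule set no order among the other 4 tissues, and differences among these were tested in the 12 libraries without leaf tip. It did require leaf tip to be at least 2 times each of them. The sets of genes that members are compared with carry no such limit. Genes higher in another tissue were thus barred from the members and kept in those sets. How far this alone sets the gaps between the shares given below was not tested. Values were fitted as log2(TPM + 1) with limma's moderated test, and a gene was called when its Benjamini-Hochberg adjusted p over the 39490 genes tested was under 0.05 and the fold change on this scale was at least 2-fold. The scale understates the change of low genes. All 207 members were tested, since each passed the filter through its leaf tip libraries, which are in none of the contrasts. Members under 1 TPM in both tissues of a contrast cannot reach 2-fold on this scale and still count in the shares given below; there were 5 such members in shoot tip against leaf, 12 in shoot tip against root tip, 69 in leaf against root and 82 in root tip against root. The moderated F test over the 4 tissues passed for 202 members, or 97.6%, against 93.7% of all genes tested and 98.6% of the 19728 genes at 5 TPM or more in leaf tip. Most genes that passed the filter on low values thus differed among the other tissues, member or not. The 5 that did not pass were LA_TRINITY_DN17625_c0_g17, LA_TRINITY_DN5168_c0_g1, LA_TRINITY_DN5574_c0_g1, RO_TRINITY_DN10182_c0_g1 and RO_TRINITY_DN6417_c0_g1, named because the count is small. Their leaf tip means were 9.13, 6.47, 14.1, 5.98 and 9.43 TPM and their adjusted p-values 0.182, 0.283, 0.0583, 0.308 and 0.08.

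Between shoot tip and leaf, 94 members were higher (45.4%) and 13 lower (6.28%) in shoot tip. Of all genes tested, 26.8% were higher and 10.3% lower in shoot tip. Among the 19728 genes at 5 TPM or more in leaf tip, the shares were 35.9% and 9.63%. The median log2 fold change was 0.87 for members, 0.47 for all genes tested and 0.65 for genes at 5 TPM or more in leaf tip. LA_TRINITY_DN50971_c0_g1 had 142.73, 137.71 and 135.28 TPM in leaf tip, with 69.76, 66.51 and 71.51 in shoot tip against 0.39, 0.53 and 0.32 in leaf (log2 difference 5.64 with an SE of 0.12 and adjusted p = 2.47e-12). LA_TRINITY_DN3316_c0_g1 averaged 113 ± 1.48 TPM in leaf tip, with 33.72, 33.25 and 32.4 in shoot tip against 0.63, 0.66 and 0.38 in leaf (log2 difference 4.46 with an SE of 0.08 and adjusted p = 7.75e-13). Both were high in leaf tip and shoot tip and under 1 TPM in every leaf library. In the opposite direction, LA_TRINITY_DN1274_c0_g1, described above, was lower in shoot tip than leaf (log2 difference -2.98 with an SE of 0.08 and adjusted p = 2.57e-11). LA_TRINITY_DN4135_c0_g1 averaged 93.8 ± 0.46 TPM in leaf tip, with 6.82, 6.78 and 7.08 in shoot tip against 43.58, 45.06 and 45.41 in leaf (log2 difference -2.53 with an SE of 0.16 and adjusted p = 3.9e-08). This balance depended on the scaling, for members and for all genes. Of the members called, 87.9% were higher in shoot tip as deposited. The share was 74.2% after median-ratio scaling (72 higher, 25 lower) and 75.3% after quantile normalization (73 higher, 24 lower). Over all genes tested, 10594 were called higher and 4079 lower as deposited. Median-ratio scaling gave 5596 and 7124, and quantile normalization 6319 and 6281. These scalings shifted the log2 fold change of the median gene by -0.46 and -0.42, and the members' median then stood 0.31 and 0.35 above it, against 0.40 as deposited.

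Between shoot tip and root tip the members leaned to the shoot tip. Here 117 members were higher in shoot tip (56.5%), against 11.2% of all genes tested and 12.9% of those at 5 TPM or more in leaf tip. No member was called lower in shoot tip by limma (0 of 207), against 9.54% of all genes tested and 4.83% of those at 5 TPM or more in leaf tip. With no fold minimum, 5 were lower in shoot tip at an adjusted or an unadjusted limma p under 0.05. After median-ratio scaling and quantile normalization 3 and 1 were called lower, as were 3 with a pseudocount of 0.1. Over all genes tested, 4628, 4100 and 4977 were called lower in these settings, against 3766 in the main fit. The median log2 fold change was 1.13 for members, 0.17 for all genes and 0.17 for genes at 5 TPM or more in leaf tip. Median-ratio scaling and quantile normalization shifted the median gene by -0.17 and -0.10. The largest value was that of LA_TRINITY_DN10228_c0_g1, the most abundant member (log2 difference 5.14 with an SE of 0.12 and adjusted p = 1.68e-11). LE_TRINITY_DN10253_c0_g1 had 103.38, 109.37 and 106.27 TPM in leaf tip, with 25.31, 25.84 and 26.72 in shoot tip against 0, 0 and 0.02 in root tip (log2 difference 4.74 with an SE of 0.07 and adjusted p = 6.1e-13). Its leaf libraries held 18.34, 19.6 and 18.19 TPM, and its root libraries 0.04, 0 and 0. It was a gene of leaf and shoot with almost no RNA in roots. The lowest value was that of RT_TRINITY_DN891_c0_g1, at -0.99, which did not reach the 2-fold minimum.

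Leaf and root gave a like picture for the mature organs. In leaf, 85 members were higher (41.1%) and 7 lower (3.38%) than in root, against 12.5% and 18.1% of all genes tested. Among genes at 5 TPM or more in leaf tip the shares were 17.2% and 11.3%. The median log2 fold change was 0.61 for members, -0.22 for all genes and -0.13 for genes at 5 TPM or more in leaf tip. LA_TRINITY_DN1274_c0_g1 had the largest value (log2 difference 4.96 with an SE of 0.08 and adjusted p = 4.69e-13). LE_TRINITY_DN1729_c0_g1 averaged 99.2 ± 1.62 TPM in leaf tip, with 31.84, 34.11 and 34.3 in leaf against 0.17, 0.08 and 0.09 in root (log2 difference 4.95 with an SE of 0.07 and adjusted p = 8.92e-14). The reverse was found for LA_TRINITY_DN50971_c0_g1, with 0.39, 0.53 and 0.32 TPM in leaf against 13.85, 12.16 and 9.45 in root (log2 difference -3.17 with an SE of 0.12 and adjusted p = 3.84e-10). LA_TRINITY_DN1720_c0_g1 averaged 79.3 ± 0.422 TPM in leaf tip, with 3, 2.96 and 2.94 in leaf against 22.17, 22.01 and 21.91 in root (log2 difference -2.54 with an SE of 0.06 and adjusted p = 4.44e-12). These genes were low in leaf although they were high in its tip. Without root replicate 3, 77 members were higher and 6 lower in leaf, and without root replicate 1, 87 were higher and 4 lower. All genes tested gave 5002 higher and 7528 lower without root replicate 3, and 4929 and 7027 without root replicate 1. A pseudocount of 0.1 gave 16 members lower in leaf, while raising it to 5 left 2. The count over all genes tested moved alike, from 7144 lower in the main fit to 10168 at 0.1 and 3751 at 5. With genes limited to a mean of at least 5 TPM over all 15 libraries, 56.2% of 121 members were higher in leaf. The share was 16.8% of all genes that passed this filter, and the members' median was 1.25. The filter includes leaf tip, through which members can pass, so members and other genes need not be alike in level in leaf and root. Median-ratio scaling and quantile normalization shifted the median gene by 0.20 and 0.27 and left 98 and 107 members higher and 6 and 4 lower. Over all genes tested these scalings gave 6350 and 6768 higher and 5868 and 5504 lower, against 4954 and 7144 as deposited.

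Root tip and root compare a tip with its organ outside the leaf. In root tip, 66 members were higher (31.9%) and 9 lower (4.35%), against 18.8% and 13.0% of all genes tested. Among genes at 5 TPM or more in leaf tip, 27.0% were higher and 6.40% lower. With genes limited to a mean of at least 5 TPM over all libraries, 43.8% of 121 members were higher in root tip. The share was 25.3% of all genes that passed this filter, which members can again pass through leaf tip. The median log2 fold change was 0.46 for members, 0.08 for all genes and 0.42 for genes at 5 TPM or more in leaf tip. RT_TRINITY_DN891_c0_g1, with about 49 TPM in root tip, had the largest value (log2 difference 5.21 with an SE of 0.07 and adjusted p = 2.16e-13). LE_TRINITY_DN376_c0_g2 averaged 81.4 ± 1.92 TPM in leaf tip, with 33.21, 34.62 and 33.2 in root tip against 0.1, 0.26 and 0.6 in root (log2 difference 4.73 with an SE of 0.11 and adjusted p = 6.88e-12). SHA_TRINITY_DN10006_c0_g1 and SHA_TRINITY_DN2830_c0_g1, the genes with root as the next tissue described above, were lower in root tip (log2 fold changes -3.13 and -2.71, adjusted p = 8.44e-10 and 1.75e-08). Without root replicate 3, 59 members were higher and 10 lower, and over all genes tested 7440 were higher and 5488 lower.

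**Figure D5:**
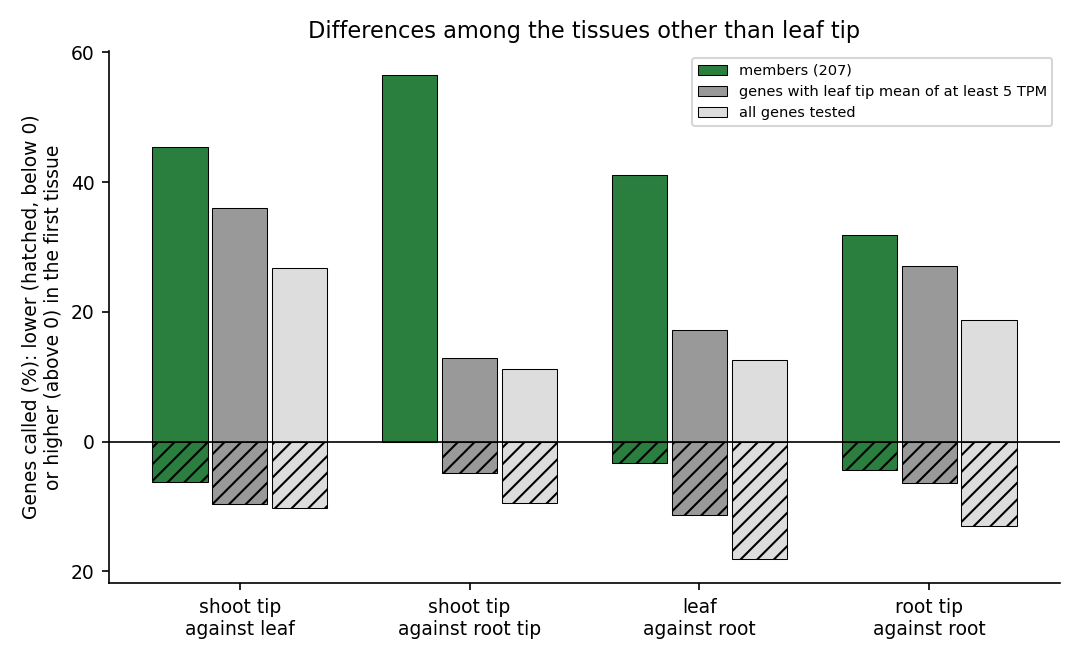
Share of genes called higher (above 0) or lower (hatched, below 0) in the first tissue of each contrast, in percent, for the 207 members, for the 19728 genes at 5 TPM or more in leaf tip and for all 39490 genes tested. For higher calls, members stand furthest from both other sets in shoot tip against root tip, where 56.5% were higher and 0 lower. For lower calls they do so in leaf against root, where 3.38% were lower.

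The contrasts of shoot tip with leaf and of root tip with root share no library. Of the 94 members higher in shoot tip than leaf, 30 (31.9%) were also higher in root tip than root, which is 45.5% of the 66 higher there. The share of all 207 members higher in root tip was the same, 31.9%, so this overlap is what the share alone gives. Of all genes tested that were higher in shoot tip than leaf, 40.1% were also higher in root tip, and of those at 5 TPM or more in leaf tip 48.9%. Of the 13 members lower in shoot tip than leaf, 5 (38.5%) were also lower in root tip than root, which is 55.6% of the 9 lower there, while the share was 29.1% for all genes tested and 18.3% for those at 5 TPM or more in leaf tip. Of all 207 members 4.35% were lower in root tip, against 13.0% of all genes tested and 6.40% of those at 5 TPM or more in leaf tip. In the opposite combinations, 0 of 94 members were higher in shoot tip and lower in root tip. The share was 4.93% for all genes tested and 2.65% for those at 5 TPM or more in leaf tip. Lower in shoot tip and higher in root tip were 3 of 13 members, against 12.6% and 17.3% in these sets. These overlaps were not tested, and the counts in the lower direction are small. RT_TRINITY_DN891_c0_g1 was among the 30, as was LA_TRINITY_DN3316_c0_g1, which had 15.08, 15.17 and 15.28 TPM in root tip against 0.08, 0.13 and 0.08 in root. LA_TRINITY_DN4135_c0_g1 was among the 5, with 1.11, 1.18 and 1.34 TPM in root tip against 15.2, 15.85 and 8.85 in root.

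Each identifier starts with 1 of the 5 codes that also head the tissue columns. The leaf tip code was on 114 members (55.1%), against 29.0% of all genes at 5 TPM or more in leaf tip and 23.1% of the table. The shoot tip code was on 50 members (24.2%), against 22.3% of the genes at that leaf tip level. The codes of leaf, root tip and root were on 19, 16 and 8 members. All 5 members under 1 TPM in every other tissue carried the leaf tip code. How far membership depends on the tissue an identifier was assembled from was not tested.

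Genes that share an identifier up to its last part come, by their names, from 1 assembly cluster. They may be related copies or fragments, which was not checked on sequences. The 207 members lay in 207 clusters, so none shared a cluster with another member. In 15 of these clusters the table held 1 other gene, and none of these 15 followed the rule. Of the 11 at 1 TPM or more in leaf tip, 3 had their highest mean there (27.3%), against 35.9% of all genes outside the set at that level. LE_TRINITY_DN376_c0_g2, with 81.4 TPM in leaf tip and 15.1 in leaf, stood beside LE_TRINITY_DN376_c0_g1, with 51.6 TPM in leaf tip and 98.3 in leaf. LE_TRINITY_DN1729_c0_g1, with 99.2 TPM in leaf tip and 33.4 in leaf, stood beside LE_TRINITY_DN1729_c0_g2, with 0.0433 TPM in leaf tip and 3.27 in leaf. In both clusters the other gene was highest in leaf and the member in leaf tip. LA_TRINITY_DN2038_c0_g2, chosen after its values were seen, was highest in leaf tip, with 1.96 TPM there against at most 0.363 in the other tissue means, beside the member LA_TRINITY_DN2038_c0_g1 at 52.8 TPM in leaf tip and 14.3 in leaf.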

How the data were processed

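RNA of 15 libraries was measured by Illumina sequencing after TRIzol extraction, per the labels' protocols. The authors deposited 1 table of TPM values for 88641 genes, with 2 decimals and column sums of 1000000 up to rounding. RSEM 1.3.2, Bowtie2 2.3.4.3 and Trim Galore 0.5.0 are the tools listed by the submitters' processing notes; settings and build are not given in the sources used here. Depth is unknown, so no counting interval or floor is given, and an exact 0 can be a failed estimate. Columns were joined to samples through their descriptions. The leaf columns match their group and no single sample, and are called a, b and c.

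Membership was computed from tissue means. Genes with at least 1 TPM in 3 of 15 libraries were tested on log2(TPM + 1) using limma (version 3.58.1, R 4.3.3), with an intensity trend, 1 mean per tissue and the 12 libraries of the other tissues (8 residual degrees of freedom). Leaf tip libraries were left out because the rule favours a small leaf tip spread. The fit was also tested on simulated data in which most genes did not differ among tissues, unlike the real data. That run does not show how well the calls hold here. Members, lists and tests were chosen with earlier results of these data known. Named genes were, by a written rule, the 8 highest members by level and by ratio, the 3 highest for each next tissue, the 2 highest and 2 lowest called members per contrast with libraries that do not overlap, and those nearest the thresholds. Figures used matplotlib 3.10.9 in Python 3.11.15. Alternatives were other thresholds, pseudocounts, filters, scalings, weights, all 15 libraries, no trend, a replicate block, and leaving out each library.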

Additional observations from a re-analysis of the deposited data

How the results depend on the processing

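The number of members followed the thresholds: 329 with a leaf tip mean of at least 2 TPM, 71 at 3 times each other mean and 768 at 1.5 times, of which 236, 41 and 594 had shoot tip as the next tissue. Median-ratio scaling left 143 members, all among the 207, with shoot tip next for 97, and quantile normalization gave 213, of which 179 were among the 207. Leaving out 1 library gave 205 to 220 members, with shoot tip next for 153 to 168. Members called, higher and lower together, numbered 107 for shoot tip against leaf, 117 for shoot tip against root tip, 92 for leaf against root and 75 for root tip against root. A pseudocount of 5 gave 50, 45, 45 and 29, and a pseudocount of 0.1 gave 122 for root tip against root. Over all 39490 genes tested, calls moved in the same direction. The main fit gave 10594 higher and 4079 lower, 4405 and 3766, 4954 and 7144, and 7408 and 5153 in the 4 contrasts. A pseudocount of 5 gave 5269 and 2497, 1788 and 2090, 3002 and 3751, and 3949 and 2686. For root tip against root, a pseudocount of 0.1 gave 9806 and 7446. A mean of at least 5 TPM over all 15 libraries kept 121 members, with 65, 72, 74 and 61 called in the 4 contrasts in the same order. The F test passed for 120. Members can pass this filter through leaf tip, so they need not match the other genes in level in the tested tissues. Higher in the first tissue were 44.6%, 59.5%, 56.2% and 43.8% of the members, against 31.9%, 10.8%, 16.8% and 25.3% of all genes that passed. Lower were 9.09%, 0%, 4.96% and 6.61%, against 13.3%, 11.5%, 18.4% and 12.1%. Of members lower in the first tissue, a pseudocount of 0.1 gave 17, 3, 16 and 20, against 13, 0, 7 and 9. Over all genes tested it gave 5045, 4977, 10168 and 7446 lower, against 4079, 3766, 7144 and 5153. Leaving out 1 library gave 106 to 110, 117 to 119, 83 to 93 and 69 to 77 members in the 4 contrasts, and 200 to 202 by the F test. The 14 named contrasts of single members kept their direction and call in all 306 alternative values computed. They were picked as the largest called changes with separate libraries, so they cannot stand for the other members. Correlations of deviations between libraries of the same number in different tissues were -0.015 to 0.024, and -0.026 to 0.022 for different numbers. No deviation shared by number was seen, which cannot show whether libraries of the same number came from the same plants. A replicate block on the 9 libraries without leaf gave 117 and 75 calls, as without it (an alternative without the block was added after seeing the data). Contrasts with leaf had no block, since leaf columns carry no number. With depth unknown, differences among members near 0 could not be weighed.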
